A study of Mus musculus with 9 samples.

Results

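The genes of the mitochondrial ribosomal proteins were followed in the liver RNA sequencing of this study. Members were the protein-coding genes whose symbol begins with Mrpl (large subunit) or Mrps (small subunit) followed by a number, and they were 78 of the 27179 genes in the table, 49 of the large and 29 of the small subunit. The study asked how the deletion of Mif-2, which encodes an atypical chemokine of the MIF family, alters the livers of atherosclerosis-prone mice. RNA came from the livers of female mice on a 12-week high-fat diet (HFD) begun at 8 weeks of age. The control group was Apoe-/- (5 libraries), and the other group was Mif-2-/-Apoe-/- (4 libraries), so that both groups lacked apolipoprotein E and none was wild-type. Mice were perfused with saline, and the lysates of 3 to 4 frozen sections were combined for each library. The study gives fewer mice per group for the liver sections than there are Apoe-/- libraries, and whether each library is a separate mouse is not given in the sources used here. The p-values therefore measure the spread between libraries, part of which may be technical. Bulk RNA cannot tell fewer cells of a type from less RNA per cell.

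The mitochondrial ribosome translates the few proteins that mitochondrial DNA encodes, all of them subunits of the respiratory chain and of ATP synthase. Its rRNAs are transcribed inside the organelle, whereas each of its proteins is encoded in the nucleus, translated in the cytosol and imported. The small subunit binds the mRNA and holds the decoding centre, and the large subunit forms the peptide bond and is attached to the inner membrane, where the new chain is inserted. Liver parenchymal cells are rich in mitochondria.

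Ddt, the gene that encodes MIF-2, had between 1205 and 4820 counts across the Apoe-/- and between 6 and 27 counts across the Mif-2-/-Apoe-/- libraries, as the labels say. Total counts ranged from 2318148 to 10764182 per library, and between 11405 and 56971 of them fell on the members. Abundances are given as counts per 1e6 counts after TMM normalization (CPM), and fold changes put Apoe-/- livers over Mif-2-/-Apoe-/- livers. The library totals behind CPM are those of the genes tested, which leave out the 10 most abundant genes. The CPM of those 10 genes is set on the same totals. Apoe-/- replicate 5 and Mif-2-/-Apoe-/- replicate 2 stood apart from their groups. The 10 most abundant genes held 14.7% of the counts in the former, where the other Apoe-/- libraries had 20.5 to 23.7%, and 26.3% in the latter, where the other Mif-2-/-Apoe-/- libraries had 12.5 to 17.0%. The summed level of 15 hepatocyte markers was 193545, 204112, 219746, 276883 and 84669 CPM in Apoe-/- replicates 1 to 5 and 109459, 250661, 78507 and 119566 CPM in Mif-2-/-Apoe-/- replicates 1 to 4, and each of the 15 was detected. The 12 Kupffer cell and macrophage markers summed to 1415 to 3334 CPM in Apoe-/- and 1681 to 2311 CPM in Mif-2-/-Apoe-/- livers. The sums of sinusoidal endothelial, stellate, cholangiocyte, lymphocyte, and neutrophil and erythroid markers overlapped between the genotypes as well.

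Per library, the transcripts of both subunits moved together. The summed level of the large subunit genes was 5462, 5232, 5443, 7580 and 3131 CPM in Apoe-/- replicates 1 to 5 and 3313, 4468, 2685 and 3491 CPM in Mif-2-/-Apoe-/- replicates 1 to 4. That of the small subunit genes was 2354, 2365, 2148, 2817 and 1587 CPM and 1424, 2009, 1103 and 1517 CPM in the same order. Apoe-/- replicates 1 to 4 exceeded all of the Mif-2-/-Apoe-/- livers for both sums, and Apoe-/- replicate 5 fell among the Mif-2-/-Apoe-/- libraries. The means were 5370 ± 1576 (SD, n = 5) against 3489 ± 738 CPM (SD, n = 4) for the large subunit, and 2254 ± 446 (SD, n = 5) against 1513 ± 375 CPM (SD, n = 4) for the small subunit. Without Apoe-/- replicate 5 the Apoe-/- means were 5929 and 2421 CPM, and without Mif-2-/-Apoe-/- replicate 2 the Mif-2-/-Apoe-/- means were 3163 and 1348 CPM. No p-value was computed for a sum over the members.

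The mean balance of the subunits was close to equal in both genotypes. The log2 ratio of the small to the large subunit sum was -1.21, -1.15, -1.34, -1.43 and -0.98 in Apoe-/- replicates 1 to 5 and -1.22, -1.15, -1.28 and -1.20 in Mif-2-/-Apoe-/- replicates 1 to 4. The means were -1.22 ± 0.17 (SD, n = 5) and -1.21 ± 0.05 (SD, n = 4), and the range of the Mif-2-/-Apoe-/- libraries lay inside that of the Apoe-/- libraries. The large subunit genes held 66.4 to 72.9% of the members' counts in each library, with the lowest share in Apoe-/- replicate 5 and the highest in Apoe-/- replicate 4. In the median of log2 CPM over the genes of each subunit, 1 library departed from the rest. The small subunit median was 0.28 above that of the large subunit in Mif-2-/-Apoe-/- replicate 2, and between 0.34 and 0.80 below it in the other 8 libraries.

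**Figure D1:**
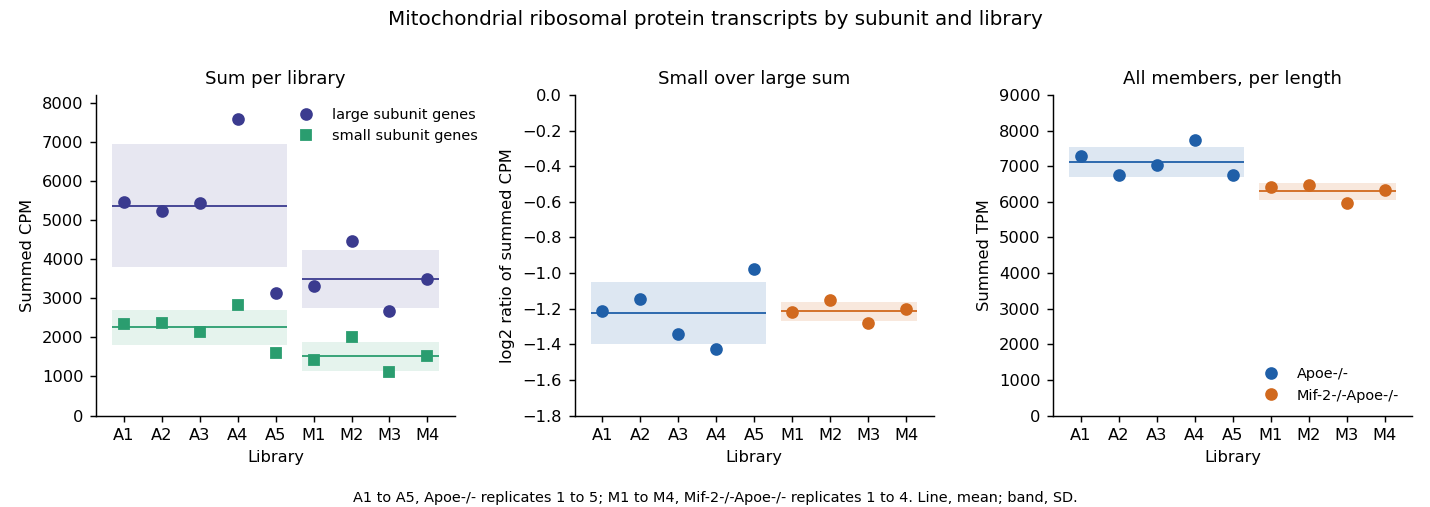
Summed transcript level of the large and small subunit genes (CPM, left), log2 ratio of the small to the large subunit sum (middle) and summed level of the 78 genes per length (TPM, right) in each of the 9 libraries, with the mean as a line and the SD as a band. Apoe-/- replicate 5 (A5) lies among the Mif-2-/-Apoe-/- libraries in the left plot, the ratio is between -1.43 and -0.98 in each library, and the summed TPM of the genotypes does not overlap.

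The size of the genotype difference depended on the scale. In TPM (transcripts per 1e6 transcripts), which divides the counts by transcript length and by the total of such values in the library, the members summed to 7289, 6751, 7036, 7738 and 6739 in Apoe-/- replicates 1 to 5 and 6411, 6485, 5962 and 6324 in Mif-2-/-Apoe-/- replicates 1 to 4. These sums did not overlap, but their means differed by a ratio of 1.13, whereas the means of the summed CPM differed by a ratio of 1.52 and overlapped. The members' summed CPM was 4.04, 3.72, 3.45, 3.76 and 5.57% of the hepatocyte marker sum for Apoe-/- replicates 1 to 5 and 4.33, 2.58, 4.83 and 4.19% for Mif-2-/-Apoe-/- replicates 1 to 4. The means of this percentage, 4.11 ± 0.84 (SD, n = 5) and 3.98 ± 0.97 (SD, n = 4), differed by less than the spread between libraries. Most of the marker sum came from Alb, Apoa1, Apoa2 and Ttr, genes left out of the test as among the 10 most abundant. They were at 61658, 55920, 39407 and 17001 CPM in Apoe-/- replicate 1. Of the 11 markers tested, 8 had a log2 fold change above 0 and 3 below, from -1.18 (Pck1) to 0.998 (Serpina1a). The percentage therefore follows mainly the abundant genes, and hepatocyte content was not tested.

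Gene by gene, most members had their higher mean in Apoe-/- livers. Of the 77 members tested, 62 had a log2 fold change above 0, that is 80.5%, where this held for 43.5% of all 16860 genes tested. The median log2 fold change was 0.60 over the members, 0.68 over the 48 large subunit genes (range -0.63 to 1.58) and 0.56 over the 29 small subunit genes (range -0.79 to 1.48), beside -0.17 over all genes and -0.03 over the 8153 genes at 10 CPM or more. Mrpl36 had at most 7 counts in a library and was not tested. Of the tested members, 70 averaged 10 CPM or more.

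No member passed the test after adjustment over all genes (edgeR quasi-likelihood test, Benjamini-Hochberg), which called 22 genes or 0.13% of those tested in either direction (0.0593% higher and 0.0712% lower). Without adjustment, 17 members were higher in Apoe-/- livers at a p-value under 0.05 (13 of the large and 4 of the small subunit) and 0 were lower, beside 6.52% of all genes higher and 8.99% lower, or 10.9% and 7.83% of the genes at 10 CPM or more. DESeq2, run as an alternative, called 7 members higher and 0 lower, Mrpl11, Mrpl12, Mrpl16, Mrpl20, Mrpl28, Mrps16 and Mrps24, where it called 2.35% of the genes with an adjusted p-value higher and 2.58% lower. At 10 CPM or more it called 7 of 70 members higher, beside 318 higher and 208 lower of 8027 genes with an adjusted p-value. At 8 members every Apoe-/- value exceeded every Mif-2-/-Apoe-/- value (Mrpl11, Mrpl12, Mrpl13, Mrpl16, Mrpl20, Mrpl42, Mrps12 and Mrps24), and at 0 members the reverse held, beside 2.24 and 2.03% of all genes, or 3.8 and 2.33% of the genes at 10 CPM or more. Single libraries set these counts. Without Mif-2-/-Apoe-/- replicate 2, edgeR called 2 members, Mrpl20 and Mrps16, 32 had an unadjusted p-value under 0.05, and DESeq2 called 22. Without Apoe-/- replicate 5, DESeq2 called 15, and without any 1 of the other 7 libraries it called 3 or 4. With the share of counts in the 10 most abundant genes as a covariate, a fit added after seeing the data, 12 members had an unadjusted p-value under 0.05, and the median log2 fold changes were 0.42 for the large and 0.32 for the small subunit.

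**Figure D2:**
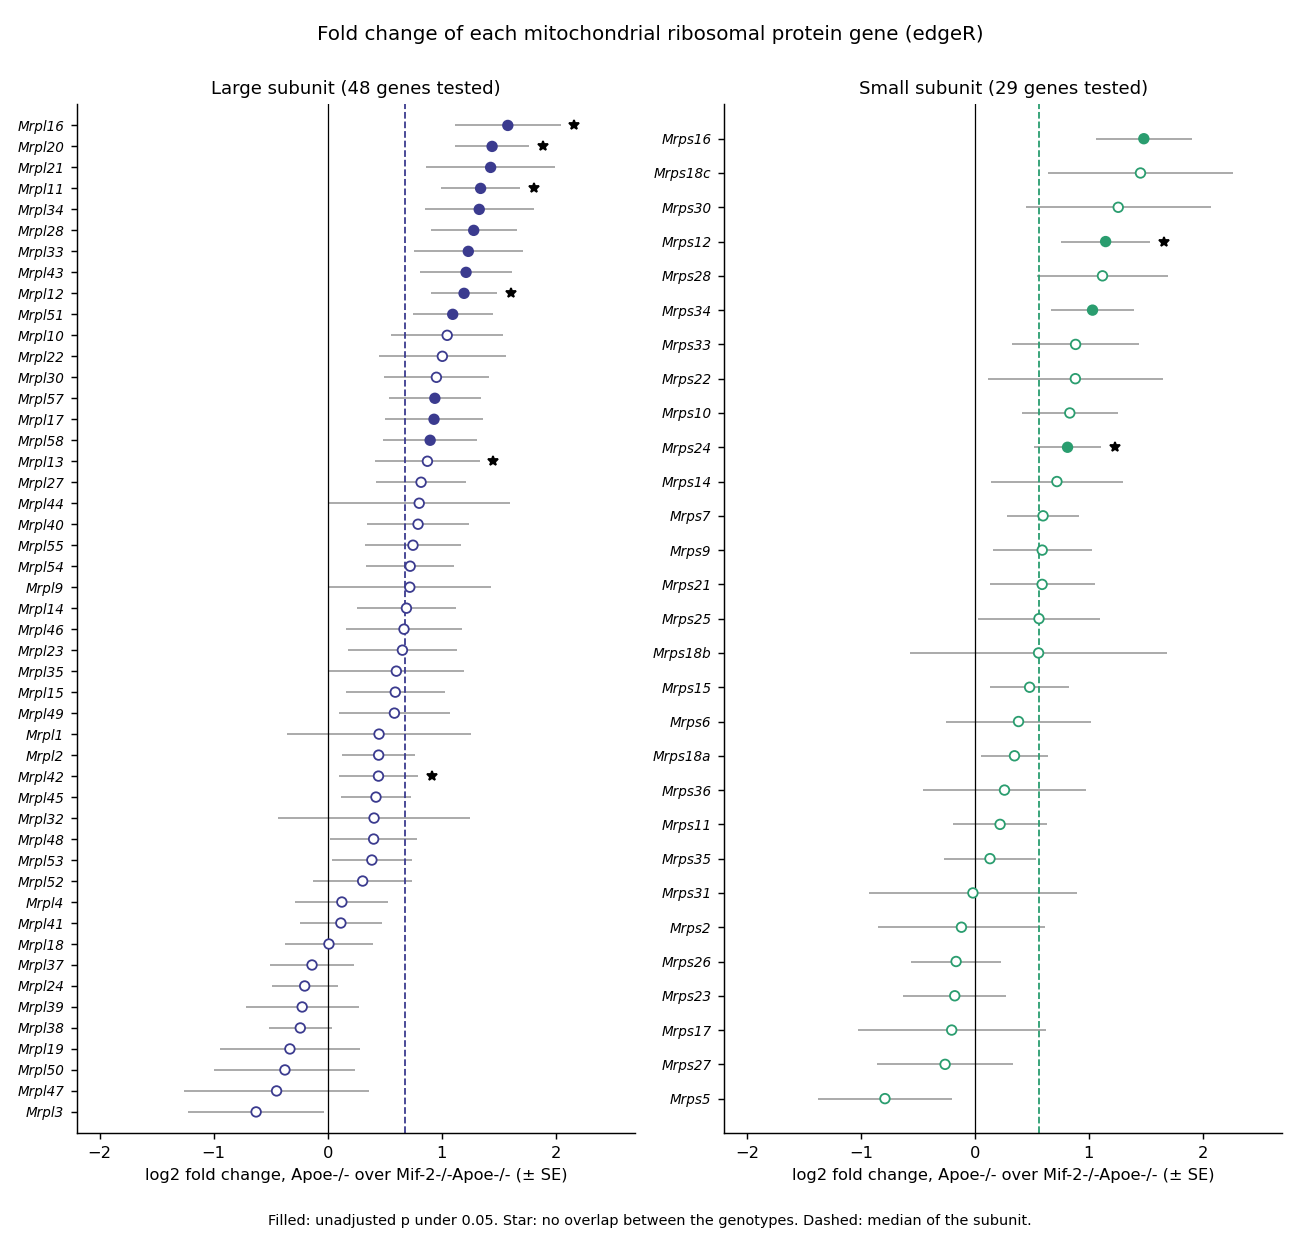
Log2 fold change of each tested member (Apoe-/- over Mif-2-/-Apoe-/-, edgeR, ± standard error), ordered within the large subunit (left, 48 genes) and the small subunit (right, 29 genes). Most points lie to the right of 0, filled points have an unadjusted p-value under 0.05 (13 and 4 genes), stars mark the 8 genes whose genotypes did not overlap, and the dashed medians are 0.68 and 0.56.

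The members moved together in part across libraries, but not as 1 block. Of the 77 members tested, 54, 44, 49, 62 and 18 were above their own median over the 9 libraries in Apoe-/- replicates 1 to 5, and 16, 36, 15 and 14 in Mif-2-/-Apoe-/- replicates 1 to 4. Apoe-/- replicate 4 held the highest value of the 9 libraries for 40 members and Mif-2-/-Apoe-/- replicate 3 the lowest for 35. Those were also the libraries with the highest and the lowest hepatocyte marker sum, 276883 and 78507 CPM. The part of the hepatocyte RNA in these differences was not tested. Transcript length went with the fold change to a small extent. The 39 members with a transcript of 1280 bases or less had, in log2 fold change, a median of 0.75, with 37 above 0, and the 38 longer ones had a median of 0.51, with 25 above 0.

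**Figure D3:**
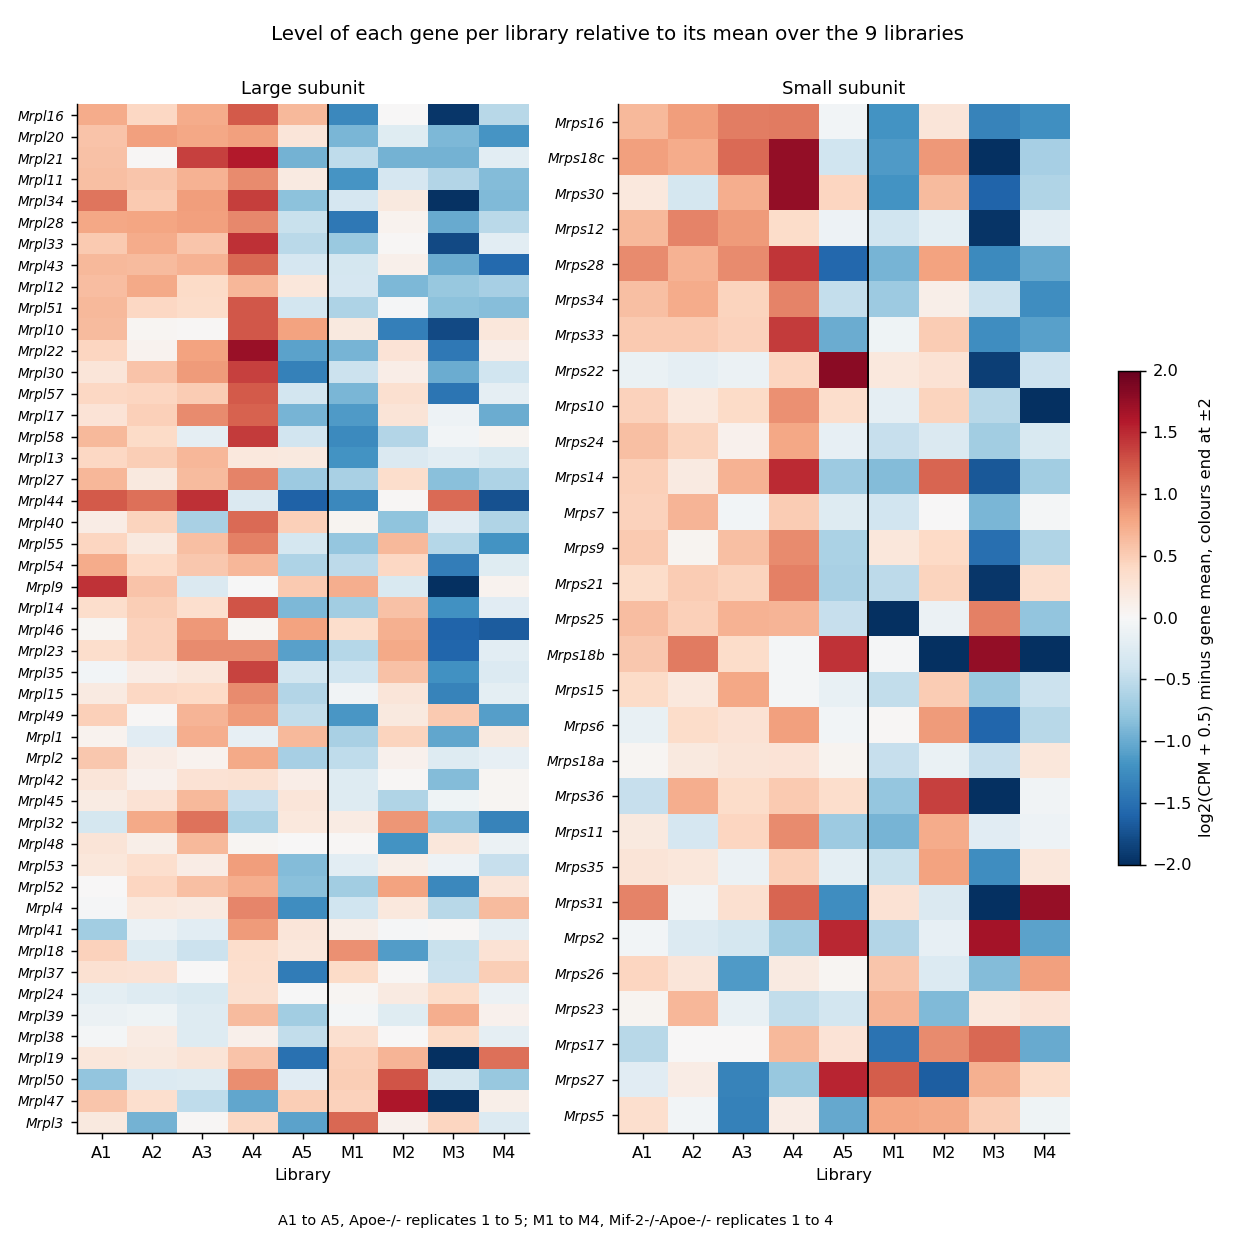
Level of each tested member in each library as log2(CPM + 0.5) minus the mean of the gene over the 9 libraries (red, above the mean; blue, below), with genes ordered by fold change within each subunit and a line between the genotypes. Apoe-/- replicate 4 (A4) is the reddest column, with the highest value for 40 members, and Mif-2-/-Apoe-/- replicate 3 (M3) the bluest, with the lowest for 35, while A5 and M2 depart from their groups.

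The sequences just upstream of these genes were examined for motifs of 3 factors that are known to act at nuclear genes of mitochondrial proteins. The motifs were GCGC followed by any 2 bases and GCGC for NRF1, CCGGAAG for ETS factors such as GABP, and AAGATGG for YY1, each on both strands and with no overlap between them required or excluded. RefSeq promoter windows (build GRCm38.p6, 250 bases before to 50 bases after the start) were matched for 69 of the 78 members. The NRF1 motif was in the windows of 20.3% of the members, beside 7.0% of all genes with a window and 13.0% of the tested protein-coding genes. The ETS motif was in 37.7% of the members, beside 9.93 and 17.0%, and the YY1 motif in 18.8%, beside 7.28 and 7.88%. Shares in the large and the small subunit were 25.6 and 11.5% for NRF1, 34.9 and 42.3% for ETS, and 16.3 and 23.1% for YY1. At least 1 of the 3 was found for 63.8% of the members (67.4% of the large and 57.7% of the small subunit), beside 21.5% of all genes and 32.7% of the tested protein-coding genes. The 26 tested members with an ETS motif had, in log2 fold change, a median of 0.88, and the 42 without had 0.59. For the NRF1 motif these medians were 0.71 (14 members) and 0.59 (54), and for YY1 0.43 (12) and 0.71 (56). A match describes letters in the window and does not show binding.

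To show what such a start looks like, the 120 bases before the outermost annotated start follow for the named members that hold a whole motif in that stretch and no annotated exon, with the motif in capitals. NRF1 motifs lie before Mrpl12 (chr11:120484493-120484612, plus strand) and Mrpl45 (chr11:97315596-97315715, plus strand), and ETS motifs before Mrpl58 (chr11:115403632-115403751, plus strand), Mrps18a (chr17:46110866-46110985, plus strand) and Mrps22 (chr9:98601680-98601799, minus strand), all in GRCm38.p6 and written 5′ to 3′ on the strand of the gene.
Mrpl12: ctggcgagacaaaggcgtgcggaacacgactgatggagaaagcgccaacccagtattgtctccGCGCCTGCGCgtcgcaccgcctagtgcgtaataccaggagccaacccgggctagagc
Mrpl45: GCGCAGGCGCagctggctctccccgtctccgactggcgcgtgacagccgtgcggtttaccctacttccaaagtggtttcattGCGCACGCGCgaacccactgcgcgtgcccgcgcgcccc
Mrpl58: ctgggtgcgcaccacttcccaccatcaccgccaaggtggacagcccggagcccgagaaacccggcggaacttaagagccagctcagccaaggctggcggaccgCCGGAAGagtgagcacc
Mrps18a: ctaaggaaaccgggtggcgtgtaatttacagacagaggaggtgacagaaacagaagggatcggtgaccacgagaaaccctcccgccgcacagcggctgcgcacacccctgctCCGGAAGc
Mrps22: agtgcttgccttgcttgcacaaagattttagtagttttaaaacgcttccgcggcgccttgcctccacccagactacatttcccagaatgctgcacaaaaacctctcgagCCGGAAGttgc
The same stretch of 4 members that DESeq2 called, without a match of these letters in the 120 bases, is given for comparison. These are Mrpl16 (chr19:11770271-11770390, plus strand), Mrpl20 (chr4:155802758-155802877, plus strand), Mrpl28 (chr17:26123380-26123499, plus strand) and Mrps16 (chr14:20393635-20393754, minus strand). Elsewhere in their promoter windows Mrpl28 holds an NRF1 motif and Mrps16 ETS motifs, and both are counted among the members with a motif above.
Mrpl16: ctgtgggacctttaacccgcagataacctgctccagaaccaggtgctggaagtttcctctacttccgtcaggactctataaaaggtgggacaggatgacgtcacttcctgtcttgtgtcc
Mrpl20: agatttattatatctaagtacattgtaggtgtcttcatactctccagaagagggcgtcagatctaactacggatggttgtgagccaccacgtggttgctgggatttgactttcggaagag
Mrpl28: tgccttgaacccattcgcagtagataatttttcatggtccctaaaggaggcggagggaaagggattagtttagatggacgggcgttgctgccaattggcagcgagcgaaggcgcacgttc
Mrps16: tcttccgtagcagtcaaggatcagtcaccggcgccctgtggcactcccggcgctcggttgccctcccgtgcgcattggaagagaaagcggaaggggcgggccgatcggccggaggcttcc
Guanine and cytosine made up 44.2% of the bases before Mrpl20 and 69.2% of those before Mrpl45, the lowest and the highest of these 9 stretches. In the whole window, Mrpl12 held a motif and Mrpl16 and Mrpl20 held none.

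Among the large subunit genes, those for proteins of the stalk that receives the translation factors had their higher means in Apoe-/- livers. This direction held for 40 of the 48 large subunit genes tested. Mrpl11 and Mrpl12, named for their role, also met the criteria of a DESeq2 call and of no overlap. Mrpl12, whose product forms the tip of this stalk, was at 150.5, 165, 128, 155 and 114 CPM across the Apoe-/- and 77.5, 52.2, 57.4 and 61.5 CPM across the Mif-2-/-Apoe-/- replicates. Each Apoe-/- library was higher, with means of 143 ± 20.9 CPM in Apoe-/- and 62.2 ± 10.9 CPM in Mif-2-/-Apoe-/- livers (SD over 5 and 4 libraries) and a log2 fold change of 1.20 (SE 0.29, adjusted p 0.132 with edgeR and 9.9e-06 with DESeq2). A two-sided exact permutation test gave p = 0.0079, the smallest that 5 against 4 libraries allow. Mrpl11, at the stalk base, was at 78.2, 75.6, 84, 100.2 and 58.5 CPM across the Apoe-/- and 22.4, 40.9, 34.3 and 27.9 CPM across the Mif-2-/-Apoe-/- replicates. The groups did not overlap (exact permutation p = 0.0079), and its log2 fold change was 1.34 (SE 0.35, adjusted p 0.138 with edgeR and 0.00272 with DESeq2). Mrpl10, which carries the Mrpl12 protein, was at 65.3, 43.2, 42.7, 99.4 and 73.4 CPM across the Apoe-/- and 48, 15.9, 11.6 and 49.2 CPM across the Mif-2-/-Apoe-/- replicates. These groups overlapped, and the log2 fold change was 1.05 (SE 0.49, unadjusted p = 0.0505). Mrpl1, the protein of the opposite stalk, was low throughout, at 7.01 ± 2.39 CPM in Apoe-/- and 5.14 ± 2.57 CPM in Mif-2-/-Apoe-/- livers (SD over 5 and 4 libraries).

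The large subunit genes that follow were named for a call, a high fold change or a lack of overlap. Their direction, and the small exact permutation p-value of Mrpl20, come from that choice. Mrpl20, an rRNA-binding protein (Entrez 66448, chromosome 4, 155802878 to 155809975, plus strand in GENCODE M21 of GRCm38) had the smallest p-value of the members with edgeR, though not with DESeq2. It was at 107, 127, 123, 128 and 84.8 CPM across the Apoe-/- and 37.8, 60.8, 38 and 31.3 CPM across the Mif-2-/-Apoe-/- replicates, without overlap. The means were 114 ± 18.3 CPM in Apoe-/- and 42 ± 12.9 CPM in Mif-2-/-Apoe-/- livers (SD over 5 and 4 libraries), and the log2 fold change was 1.44 (SE 0.33, adjusted p 0.106 with edgeR and 2.7e-04 with DESeq2, exact permutation p = 0.0079). Mrpl16, which lies near the tRNA sites, had the highest fold change of the members. It was at 53.2, 42, 53.1, 74.6 and 49.8 CPM across the Apoe-/- and 12.6, 31.8, 7.81 and 21.3 CPM across the Mif-2-/-Apoe-/- replicates, again without overlap, with a log2 fold change of 1.58 (SE 0.46, adjusted p 0.163 with edgeR and 0.0158 with DESeq2). Mrpl13 and Mrpl42 had no overlap either, but smaller fold changes of 0.88 and 0.45 with unadjusted p-values of 0.0754 and 0.219. Mrpl28 was at 399.6, 403, 410.3, 453 and 170.2 CPM across the Apoe-/- and 85.8, 244, 115 and 160.5 CPM across the Mif-2-/-Apoe-/- replicates. Apoe-/- replicate 5 was far below the other 4 of its group and within the range of the Mif-2-/-Apoe-/- libraries, and the log2 fold change was 1.28 (SE 0.38, adjusted p 0.164 with edgeR and 0.0373 with DESeq2). Mrpl21 had a log2 fold change of 1.43 with a larger error (SE 0.57, unadjusted p = 0.0243), and its Apoe-/- values ran from 10.8 to 65.1 CPM.

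Mrpl2 and Mrpl4 were named for their role, and Mrpl3, Mrpl19 and Mrpl50 have the 3 lowest fold changes of the large subunit genes at 10 CPM or more. Mrpl2, which lies near the peptidyl transferase centre, was at 207 ± 70.9 CPM in Apoe-/- and 152 ± 25.7 CPM in Mif-2-/-Apoe-/- livers (SD over 5 and 4 libraries). Mrpl4 was at 159 ± 78.1 CPM in Apoe-/- and 146 ± 56.9 CPM in Mif-2-/-Apoe-/- livers (SD over 5 and 4 libraries), a log2 fold change of 0.12 whose sign turned in 4 of the alternative fits. Mrpl3 had the lowest fold change of the large subunit. It was at 15.9, 6.97, 14.1, 18.7 and 6.39 CPM across the Apoe-/- and 31.5, 14.8, 18.9 and 11.4 CPM across the Mif-2-/-Apoe-/- replicates, a log2 fold change of -0.63 (SE 0.60, unadjusted p = 0.31) with overlapping groups. Mrpl19 and Mrpl50, also at the low end, had log2 fold changes of -0.33 and -0.38 and unadjusted p-values of 0.599 and 0.554, and the sign of each turned in 1 alternative fit.

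At the exit of the nascent chain, Mrpl23 lines the rim of the tunnel and Mrpl45 ties the ribosome to the inner membrane. Mrpl45 was at 129, 141, 179, 83.2 and 136 CPM across the Apoe-/- and 95.8, 75.5, 108 and 118 CPM across the Mif-2-/-Apoe-/- replicates, which overlapped, with a log2 fold change of 0.42 (SE 0.31, unadjusted p = 0.19). Mrpl23 had a log2 fold change of 0.66 (SE 0.48). Mrpl58, a peptidyl-tRNA hydrolase built into the large subunit that can release stalled chains, was at 155 ± 80.6 CPM in Apoe-/- and 83 ± 31.1 CPM in Mif-2-/-Apoe-/- livers (SD over 5 and 4 libraries), a log2 fold change of 0.90 (SE 0.41, adjusted p 0.311 with edgeR). Mrpl44, which has the fold of an RNase III enzyme, was at 26.9, 24.4, 31.5, 9.07 and 3.29 CPM across the Apoe-/- and 4.27, 11.4, 24.9 and 2.97 CPM across the Mif-2-/-Apoe-/- replicates. Its values spread widely within each genotype, and the log2 fold change was 0.80 (SE 0.80).

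In the small subunit, Mrps12 and Mrps24 had no overlap between the genotypes. Mrps12, a protein of the decoding centre, was at 149.7, 191, 172, 123 and 89.1 CPM across the Apoe-/- and 72, 82.9, 24.2 and 82.5 CPM across the Mif-2-/-Apoe-/- replicates. The log2 fold change was 1.15 (SE 0.39, adjusted p 0.195 with edgeR and 0.0603 with DESeq2), and the exact permutation test gave p = 0.0159. Mrps24, which lies near the mRNA entry, was at 287, 259.6, 200.5, 323 and 169 CPM across the Apoe-/- and 138, 154, 117 and 154 CPM across the Mif-2-/-Apoe-/- replicates. Its log2 fold change of 0.81 (SE 0.29, adjusted p 0.214 with edgeR and 0.0376 with DESeq2) was the smallest of the 7 members that DESeq2 called. Mrps16, an rRNA-binding protein needed for assembly of the small subunit, had the highest fold change of the small subunit. It was at 97.4, 112, 127, 129 and 60.0 CPM across the Apoe-/- and 26.8, 73.8, 24.4 and 26.3 CPM across the Mif-2-/-Apoe-/- replicates. Mif-2-/-Apoe-/- replicates 1, 3 and 4 were close together and replicate 2 was above Apoe-/- replicate 5, with a log2 fold change of 1.48 (SE 0.42, adjusted p 0.154 with edgeR and 0.0247 with DESeq2) that was 2.11 without Mif-2-/-Apoe-/- replicate 2.

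Mrps7, a protein of the head, was at 295, 344, 208, 307 and 179.7 CPM across the Apoe-/- and 165, 217, 114 and 209 CPM across the Mif-2-/-Apoe-/- replicates, which overlapped, and had a log2 fold change of 0.60 (SE 0.31, unadjusted p = 0.0765). Mrps14, also of the head, had a log2 fold change of 0.72 (SE 0.58), and its Mif-2-/-Apoe-/- values ran from 13.4 to 99.95 CPM. Mrps34, which is particular to mitochondria, was at 218 ± 70.4 CPM in Apoe-/- and 107 ± 42.1 CPM in Mif-2-/-Apoe-/- livers (SD over 5 and 4 libraries), a log2 fold change of 1.03 with an unadjusted p of 0.0132. Of the exonic bases of Mrps34, 77.8% lie under annotated exons of other genes, and since the library kit does not mark strand, reads of overlapping genes cannot be told apart. Mrps22 was at 7.96, 7.64, 7.98, 11.9 and 31.9 CPM across the Apoe-/- and 10.2, 10.8, 2.02 and 6.4 CPM across the Mif-2-/-Apoe-/- replicates. The highest value was in Apoe-/- replicate 5, and the log2 fold change of 0.88 had an SE of 0.77.

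A few small subunit genes had their higher mean in Mif-2-/-Apoe-/- livers, none at an unadjusted p-value under 0.05. Mrps5, at the mRNA entry, had the lowest fold change of the members. It was at 17.7, 13.4, 5.16, 15.5 and 6.58 CPM across the Apoe-/- and 24.4, 23.9, 19.9 and 13 CPM across the Mif-2-/-Apoe-/- replicates, a log2 fold change of -0.79 (SE 0.58, unadjusted p = 0.198). Mrps2 was at 11.7, 9.92, 9.39, 7.26 and 35.2 CPM across the Apoe-/- and 7.93, 10.8, 39.6 and 5.49 CPM across the Mif-2-/-Apoe-/- replicates. In each genotype 1 library stood more than 20 CPM above the others, and the log2 fold change was -0.12 (SE 0.73). Mrps23 and Mrps27 had log2 fold changes of -0.18 and -0.26, and the signs of Mrps2, Mrps23 and Mrps27 turned in several alternative fits.

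**Figure D4:**
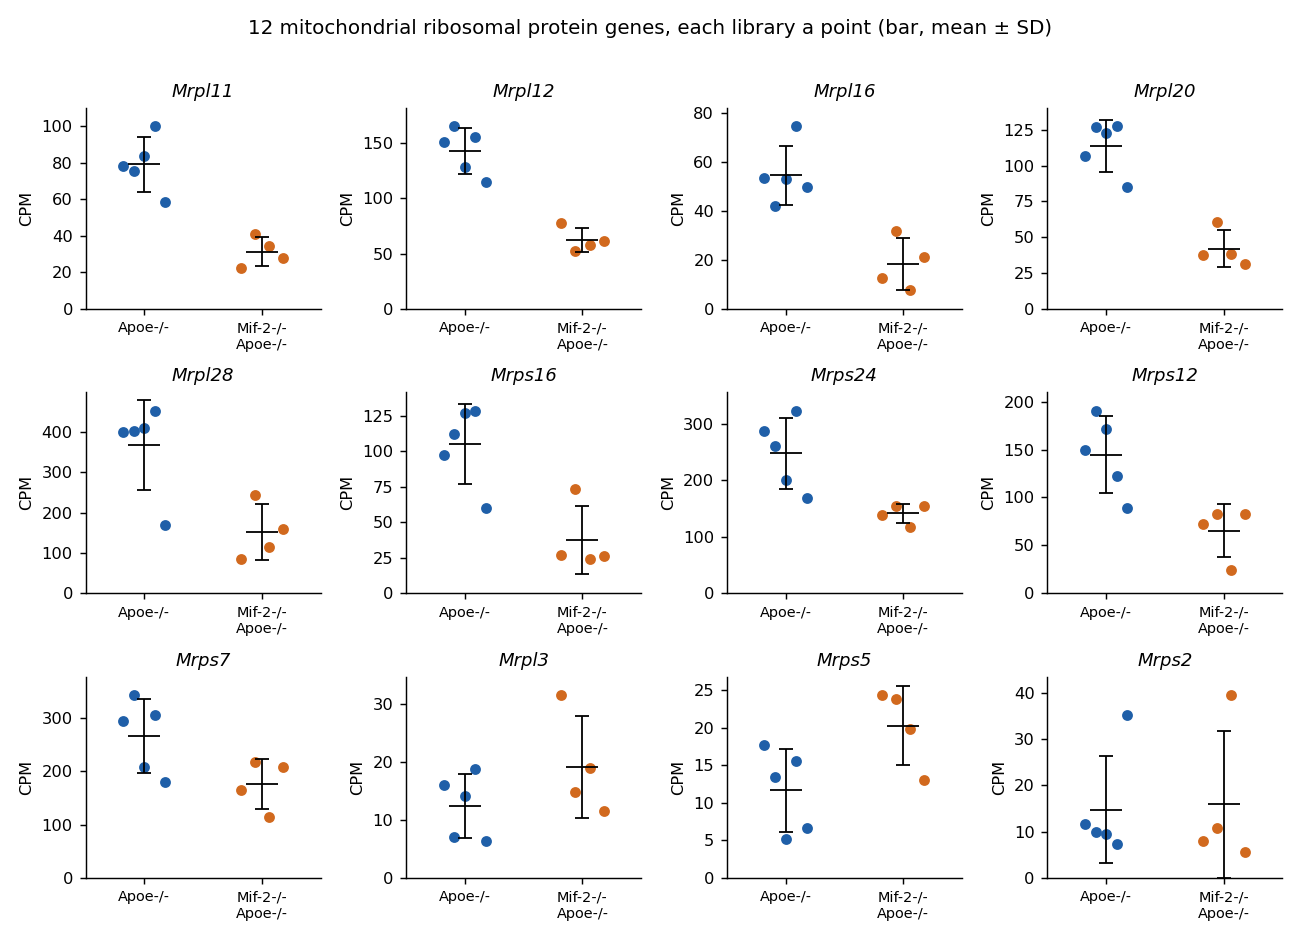
CPM of 12 members in each library, with Apoe-/- in blue (n = 5) and Mif-2-/-Apoe-/- in orange (n = 4), and the mean ± SD in black. Mrpl11, Mrpl12, Mrpl16, Mrpl20, Mrps12 and Mrps24 do not overlap between the genotypes, Mrpl28 and Mrps16 overlap through 1 library of a group, and Mrpl3, Mrps5 and Mrps2 have their higher mean in Mif-2-/-Apoe-/- livers.

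Several symbols do not name the subunit that holds the protein. Mrps18a and Mrps30 are parts of the large subunit in the assembled ribosome, and Mrps36 is now regarded as a subunit of the oxoglutarate dehydrogenase complex. Mrps30 was at 12.3 ± 7.73 CPM in Apoe-/- and 5.2 ± 4.24 CPM in Mif-2-/-Apoe-/- livers (SD over 5 and 4 libraries), a log2 fold change of 1.26 (SE 0.81, unadjusted p = 0.143). Of the Mrps18 paralogs, Mrps18a was at 93.6 ± 7.28 CPM in Apoe-/- and 73.5 ± 17.4 CPM in Mif-2-/-Apoe-/- livers (SD over 5 and 4 libraries), Mrps18b at 6.34 ± 2.79 CPM in Apoe-/- and 4.25 ± 6.09 CPM in Mif-2-/-Apoe-/- livers (SD over 5 and 4 libraries) and Mrps18c at 20.8 ± 10.4 CPM in Apoe-/- and 7.73 ± 8.06 CPM in Mif-2-/-Apoe-/- livers (SD over 5 and 4 libraries), with log2 fold changes of 0.35, 0.56 and 1.45, and none had an unadjusted p-value under 0.05. Mrps36 had a log2 fold change of 0.26 (SE 0.71). With these genes placed by structure, the medians were 0.68 over 50 large subunit genes and 0.58 over 26 small subunit genes, and the mean log2 ratio of the sums was -1.33 ± 0.16 (SD, n = 5) and -1.34 ± 0.06 (SD, n = 4).

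Between genes, levels were compared only per length, as TPM. The median over the genes was 60.9 TPM for the large subunit and 29.9 TPM for the small subunit, with interquartile ranges of 13.8 to 118 and 11.5 to 102 TPM. Mrpl14, chosen for its level, was the most abundant member at 761 ± 204 TPM (SD, n = 5) in Apoe-/- and 648 ± 177 TPM (SD, n = 4) in Mif-2-/-Apoe-/- livers. Mrpl52, Mrpl54, Mrpl18 and Mrpl28 followed with means over the 9 libraries of 383, 360, 277 and 270 TPM, and Mrps24, at 227 TPM, was the highest of the small subunit. The order of these neighbours lies within their spread between libraries, and it depends on the length used, since Mrpl52 was at 205 TPM over the union of its exons. Most proteins of the ribosome are present as a single copy, while their transcripts ranged from 0.345 TPM (Mrpl36) to 711 TPM (Mrpl14).

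The genes that act with the mitochondrial ribosome had other medians, apart from further proteins of the ribosome itself. Proteins of the ribosome whose symbols fall outside the naming rule (6 genes) had, in log2 fold change, a median of 0.60, with 2 higher and 0 lower in Apoe-/- livers at an unadjusted p-value under 0.05. These were Gadd45gip1 and Ndufab1, with log2 fold changes of 0.995 and 1.84, and the latter also carries the acyl groups of mitochondrial fatty acid synthesis. Dap3, a GTP-binding protein of the small subunit, was at 159, 103, 80.8, 50.6 and 95.4 CPM across the Apoe-/- and 149, 101, 169 and 219 CPM across the Mif-2-/-Apoe-/- replicates, a log2 fold change of -0.71 (SE 0.36, unadjusted p = 0.0667). The 17 mitochondrial translation factors had a median of 0.04, with 2 higher and 1 lower at an unadjusted p-value under 0.05. For comparison with each of these lists, 6.52% of all genes were higher and 8.99% lower at that threshold. Among the genes at 10 CPM or more, these shares were 10.9% and 7.83%. The lower factor was Metap1d, with a log2 fold change of -0.86 (SE 0.38, unadjusted p = 0.0386 with edgeR). Tufm, the elongation factor that brings aminoacyl-tRNA to the ribosome, was at 69, 116, 90.1, 123 and 89.1 CPM across the Apoe-/- and 29.1, 46.6, 40.1 and 45 CPM across the Mif-2-/-Apoe-/- replicates. It did not overlap, and its log2 fold change was 1.28 (SE 0.33, adjusted p 0.137 with edgeR and 0.00295 with DESeq2).

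Of 28 genes of ribosome assembly and rRNA modification, 0 had an unadjusted p-value under 0.05 by edgeR and 0 were called by DESeq2, and their median was -0.13. The 20 genes of mitochondrial aminoacyl-tRNA synthetases and amidotransferase subunits had a median of -0.21. At an unadjusted p-value under 0.05, 2 were higher and 2 lower, beside 6.52 and 8.99% of all genes. Over other normalizations, filters and fits, the medians of these lists crossed 0, with highest values of 0.11 and 0.01. The 21 genes of mitochondrial DNA transcription and maintenance had a median of -0.40, with 0 higher and 1 lower. The lower one was Ppargc1b, a coactivator of genes for mitochondrial proteins. It was at 9.74, 8.58, 21.6, 5.04 and 17.2 CPM across the Apoe-/- and 61.4, 52.8, 100.3 and 57.8 CPM across the Mif-2-/-Apoe-/- replicates. Each Mif-2-/-Apoe-/- library was higher, with means of 12.4 ± 6.78 CPM in Apoe-/- and 68.1 ± 21.8 CPM in Mif-2-/-Apoe-/- livers (SD over 5 and 4 libraries) and a log2 fold change of -2.47 (SE 0.48, adjusted p 0.0731 with edgeR and 1.2e-04 with DESeq2).

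The rRNAs of the mitochondrial ribosome had their higher means in Mif-2-/-Apoe-/- livers, the opposite of the transcripts of most of its proteins. No protein was measured. mt-Rnr2, the rRNA of the large subunit, was at 828, 824, 1248, 778 and 3231 CPM across the Apoe-/- and 2684, 2828, 5220 and 2682 CPM across the Mif-2-/-Apoe-/- replicates. In Apoe-/- replicate 5 it lay among the Mif-2-/-Apoe-/- libraries, and the other 4 Apoe-/- libraries were below them, with a log2 fold change of -1.28 (SE 0.45, unadjusted p = 0.012, adjusted p 0.202 with edgeR). mt-Rnr1, the rRNA of the small subunit, was at 47.9, 33, 71.4, 55.4 and 122 CPM across the Apoe-/- and 78.9, 142, 108 and 95.3 CPM across the Mif-2-/-Apoe-/- replicates, with a log2 fold change of -0.69 (SE 0.39, unadjusted p = 0.0968). RNA was purified on oligo dT beads, which bind poly(A) tails, so the amount of rRNA in ribosomes was not measured. Lars2, the leucyl-tRNA synthetase, was the gene of these pathway lists with the lowest fold change after Ppargc1b. Lars2 was at 72.8, 114, 254, 142 and 386 CPM across the Apoe-/- and 1039, 317, 578 and 1036 CPM across the Mif-2-/-Apoe-/- replicates. Its log2 fold change was -1.94 (adjusted p 0.136 with edgeR and 0.0122 with DESeq2). The groups overlapped through Apoe-/- replicate 5, which was also the highest of its group for mt-Rnr2. Pars2, another synthetase of the same list, went the other way without overlap. Its log2 fold change was 2.73 (SE 1.09, adjusted p 0.258 with edgeR and 0.0322 with DESeq2), at means of 9.18 CPM in Apoe-/- and 1.42 CPM in Mif-2-/-Apoe-/- livers.

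Many members share their start region with another gene. Of the 78 members, 33 (42.3%) had a protein-coding neighbour on the opposite strand, head to head, whose start lay within 1000 bases, beside 2079 of 14998 tested protein-coding genes (13.9%). Mrpl46 and Mrps11 were such a pair, of a large and a small subunit gene, with log2 fold changes of 0.67 and 0.22. The 30 tested neighbours that were no members had, in log2 fold change, a median of -0.28, with 12 above 0. At an unadjusted p-value under 0.05, 3 neighbours were higher and 3 lower, beside 6.52 and 8.99% of all genes. None of these neighbours was called by edgeR. The members beside them had a median of 0.72, and the members without a head-to-head neighbour 0.59. Of the 29 pairs of a member and a neighbour that was no member in which both were tested, the member had the higher fold change in 22. Mrps12 starts 172 bases from Sars2, the mitochondrial seryl-tRNA synthetase, and these had log2 fold changes of 1.15 and -0.33. Mrps7 and its neighbour Gga3 had log2 fold changes of 0.60 and -1.43.

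**Figure D5:**
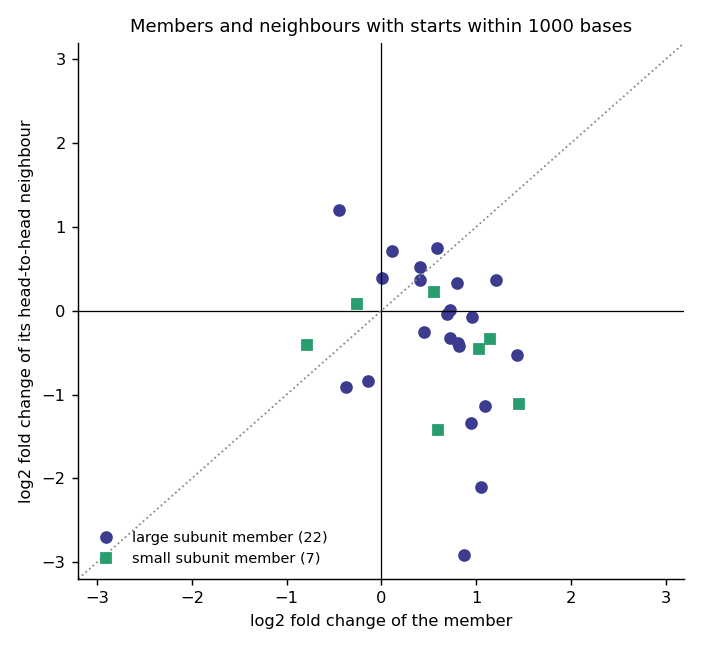
Log2 fold change (Apoe-/- over Mif-2-/-Apoe-/-) of members on the horizontal axis and of their head-to-head neighbours that were no members on the vertical axis, for 29 pairs with starts within 1000 bases, with equality as a dotted line. Points lie mostly to the right of 0 and below the dotted line, where the member had the higher fold change (22 of 29 pairs).

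For comparison in the same libraries, the 82 tested genes of cytosolic ribosomal proteins had, in log2 fold change, a median of 0.77, with 78 above 0, and the 36 genes of complex I had a median of 1.06, with 36 above 0. The summed CPM of the members was 21.0 to 26.0% of that of the cytosolic ribosomal proteins in the Apoe-/- libraries and 20.8 to 34.1% in the Mif-2-/-Apoe-/- libraries. As a share of the complex I sum it was 57.1, 50.9, 50.4, 53.5 and 78.8% for Apoe-/- replicates 1 to 5 and 97.1, 50.9, 104 and 77.7% for Mif-2-/-Apoe-/- replicates 1 to 4. Apoe-/- replicate 5 was the highest of its group and Mif-2-/-Apoe-/- replicate 2 the lowest of its own, so that the ranges overlapped.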

How the data were processed

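RNA sequencing of 9 liver libraries (Smart-seq2, paired-end) was analysed. The authors deposited raw counts per gene under Entrez identifiers, made by trimming with cutadapt and alignment with HISAT2 to mm10, according to the submitters' processing notes. The program and annotation used for counting are not given in the sources used here. RefSeq symbols matched 25275 of the 27179 identifiers. A gene was kept if a count of 1 or more was present in 3 or more libraries of 1 genotype. Without the 10 most abundant genes, 16860 remained for the quasi-likelihood test of edgeR 4.0.16 in R 4.3.3 (TMM normalization, Benjamini-Hochberg adjusted p under 0.05). SE is the standard error of the log2 fold change. DESeq2 1.42.0 was the main alternative. Single genes were also tested with two-sided exact permutation tests on log2(CPM + 0.5) over 126 arrangements of the libraries. These p-values are not adjusted over the members, and a lack of overlap between the genotypes makes them small. TPM used principal transcript lengths of GENCODE M21, and the exon union was an alternative. Promoter sequences are from RefSeq (GRCm38.p6). The edgeR script was tested on simulated data. Counting error alone limits a library to a floor of 3 counts, 0.40 to 1.70 CPM. The p-values and floors do not cover duplicate reads.

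The members and gene lists were chosen with earlier results of these data known. Named genes are role anchors of each subunit, the members called by DESeq2, the 3 highest and 3 lowest fold changes of each subunit at 10 CPM or more, and the members without overlap between the genotypes. Samples were grouped by genotype as labelled. Same-numbered libraries of the genotypes correlated between -0.03 and 0.14 in their deviations, so the numbers were not used as pairs. Alternatives were other size factors, filters, the top 10 genes kept, gene classes removed, a replicate block and each library left out. Of the genes encoded by mitochondrial DNA, only mt-Rnr1 and mt-Rnr2 were analysed here. The mRNAs of mitochondrial DNA, which this ribosome translates, were looked for by symbol. None was matched to a counted gene, so they could not be compared.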

Additional observations from a re-analysis of the deposited data

Results flagged for a closer look

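Of 76 groups of values examined, 8, all of named members, held a library far from the others by Dixon's criterion. This criterion is set to flag about 1 in 20 groups. The groups share libraries and are not independent, so the 8 flagged groups cannot be set against that rate. Apoe-/- replicate 5 accounted for 3 of them, with Mrpl28 at 170.2 CPM (the nearest of the other 4 libraries at 399.6 CPM), Mrps2 at 35.2 CPM (nearest 11.7 CPM) and Mrps22 at 31.9 CPM (nearest 11.9 CPM). Mif-2-/-Apoe-/- replicate 2 accounted for 2, with Mrps14 at 99.95 CPM (nearest 27.2 CPM) and Mrps16 at 73.8 CPM (nearest 26.8 CPM). The others were Mif-2-/-Apoe-/- replicate 1 for Mrpl13 at 9.76 CPM (nearest 18.5 CPM), Mif-2-/-Apoe-/- replicate 3 for Mrps2 at 39.6 CPM (nearest 10.8 CPM) and Apoe-/- replicate 4 for Mrpl50 at 28.2 CPM (nearest 12.4 CPM).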

How the results depend on the processing

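The number of members with an adjusted p-value under 0.05 was 0 by edgeR, with 17 at an unadjusted p-value under 0.05, and 7 by DESeq2. It was 4 with the replicate number of the labels as a replicate block (Mrpl20, Mrpl28 and Mrps16 among the named members), and then 31 members had an unadjusted p-value under 0.05. In that fit the number 5 occurs in 1 library, Apoe-/- replicate 5, which then carries no information on the genotype. Over the fits that left out 1 library each, edgeR called 0 to 2 members, and 12 to 32 had an unadjusted p-value under 0.05, with both highest values without Mif-2-/-Apoe-/- replicate 2. The cause of these changes was not tested. DESeq2 without each library in turn and the covariate for the 10 most abundant genes were added after seeing the data. Another normalization (TMMwsp) moved the median of all genes from -0.17 to 0.00 and the medians of the large and small subunit to 0.83 and 0.76. The median of the large subunit minus that of the small lay between -0.02 and 0.20 over all alternatives.

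Signs turned for 7 named members, each with an adjusted p-value of 0.64 or above in these fits. With TMMwsp, Mrps2 was at 0.041 and Mrps23 at 0.029 (log2 fold change), and with the replicate block Mrpl19 was at 0.19. With the covariate, Mrpl4 was at -0.32, Mrps2 at 0.17, Mrps23 at 0.18 and Mrps27 at 0.52. Over the fits that left out 1 library each, Mrps2 ranged from -0.74 to 0.88, Mrps23 from -0.33 to 0.038, Mrps27 from -0.92 to 0.099, Mrpl4 from -0.091 to 0.38, Mrpl50 from -0.69 to 0.21 and Mrps36 from -0.084 to 1.25. The other 28 named members kept the sign of their fold change in each of 18 alternative fits.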
